A study of Homo sapiens with 6 samples.

Results

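NF-kB is a family of transcription factors that act as pairs of subunits, held in the cytoplasm by inhibitor proteins until a receptor signal leads to the destruction of the inhibitor. The family was followed here in U251MG, an established human glioma cell line, through 10 genes: the subunit genes RELA, RELB, NFKB1 and NFKB2, the inhibitor genes NFKBIA and NFKBIE, the feedback genes TNFAIP3 and BIRC3, and the target genes ICAM1 and TNFAIP2. Members were all probe sets that the platform annotation gives exactly 1 gene symbol, that symbol being 1 of the 10. This found 17 probe sets of 9 genes among 41091 probe sets with 1 symbol, and BIRC3 was not analysed here. Of the 17 probe sets, 14 passed a filter on dim signal, and all 9 genes had at least 1 of them.

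Dishes were coated with electrospun nanofibers of poly-caprolactone, a polyester, and held 3 cultures on aligned fibers and 3 cultures on random fibers. All 6 cultures were kept in medium with serum, received no other agent and were harvested after 24 h. The series describes the cultures as independent, and each gave 1 Affymetrix array. All arrays come from 1 cell line, and values are log2 RMA expression. The question was how the substrate's topography relates to gene expression in migrating glioma cells.

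NF-kB activity raises the transcription of several of its own regulators. NFKBIA, TNFAIP3 and BIRC3 are known targets that act back on the pathway, and NFKB2 and RELB, which form the pair of the non-canonical branch, are targets as well. In astrocytes and glioma cells the pathway is known for cytokine, chemokine and adhesion gene responses to tumour necrosis factor and interleukin-1.

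The array of aligned 3 stood apart from the others. On the first principal component of the kept probe sets, which held 56.5% of the variance, it scored 46.1, and the other 5 arrays lay between -17.1 and 8.52. Of 8 markers of glioma and astrocyte lineage, 7 had a kept probe set. The filament gene VIM read 14.06 to 14.21 on aligned and 14.20 to 14.26 on random fibers. The lineage factor genes SOX2 and SOX9 were lower on aligned fibers without overlap, SOX2 at 10.63 to 11.32 on aligned and 11.38 to 11.61 on random fibers, and SOX9 at 10.52 to 11.27 on aligned and 11.35 to 11.56 on random fibers. The astrocyte marker GFAP read 4.87 to 5.80 on aligned and 5.24 to 6.65 on random fibers, a log2 difference of -0.81, and S100B, which had 0 kept probe sets, read 4.04 to 4.97 on aligned and 5.60 to 5.76 on random fibers. NES, CD44 and TNC overlapped between the groups, as did VIM and GFAP. Their log2 differences were -0.24 for NES, -0.11 for CD44 and -0.0072 for TNC. The summed linear signal of 3 neuronal markers was 352 to 411 on aligned and 273 to 320 on random fibers, and that of 3 measured leukocyte markers was 99.2 to 108 on aligned and 88.8 to 97.7 on random fibers, so neither sum overlapped between the groups. Of the 3 neuronal markers SYT1 alone had separated groups, at 7.55 to 8.06 on aligned and 7.16 to 7.45 on random fibers, while RBFOX3 and SNAP25 overlapped. The leukocyte markers PTPRC, CD14 and AIF1 each overlapped, so their sum separated although none of them did alone. PTPRC and CD14 had 0 kept probe sets, so much of that sum came from signal below the filter. The sums overlapped for endothelial markers (160 to 185 on aligned, 148 to 165 on random) and epithelial markers (109 to 135 on aligned, 99.2 to 115 on random). They also overlapped for oligodendrocyte markers (106.1 to 119 on aligned, 106.1 to 110.2 on random) and lineage markers (31407 to 37183 on aligned, 36841 to 39222 on random). RMA gives no values of 0, and the part of these differences in the results below was not tested. In RNA from whole cultures, fewer cells of a type and less RNA per cell cannot be told apart.

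TNFAIP3, NFKB2 and RELB were the members whose values on aligned fibers lay above all values on random fibers, in 5 of the 14 kept probe sets. The largest difference was that of TNFAIP3, about 1.4-fold, and the other 6 genes had overlapping groups. No member passed the test over all probe sets. In limma with Benjamini-Hochberg adjustment 0 of 14 member probe sets and 0 of 27621 kept probe sets (0%) reached an adjusted p under 0.05, with a lowest adjusted p of 0.506 among members and among all. At an unadjusted p under 0.05 there were 4 member probe sets, all 4 higher on aligned fibers, where 9.69% of all kept probe sets were at that threshold, 3.86% higher and 5.83% lower. The 5 separated probe sets stand beside 7.61% of all kept probe sets that lay above in the same way and 8.86% that lay below. These counts describe the members, several of which share a gene, and they were not tested.

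**Figure D1:**
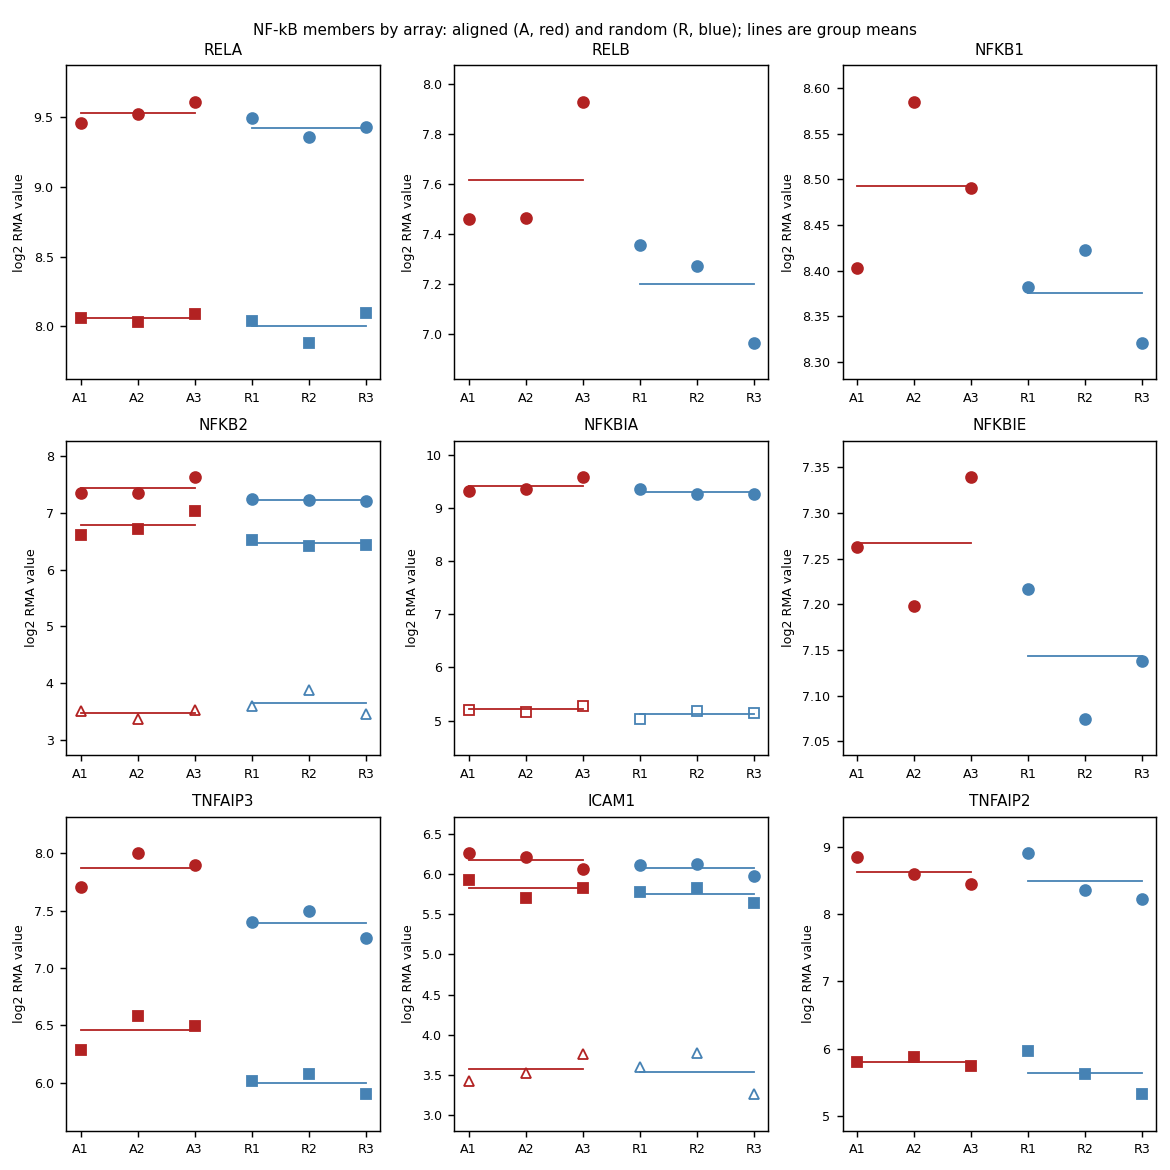
Log2 RMA value (y axis) of each member probe set in each array (x axis, A1 to A3 on aligned and R1 to R3 on random fibers), 1 panel a gene and 1 marker shape a probe set, with open markers for the 3 below the filter and lines for the group means. Both TNFAIP3 probe sets lie above on all 3 aligned arrays, while for RELA and ICAM1 the groups overlap.

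TNFAIP3 encodes A20, an enzyme that edits ubiquitin chains and shuts down NF-kB signalling as negative feedback. Its probe set 202644_s_at read 7.71, 8.00 and 7.90 on aligned 1 to 3, against 7.40, 7.50 and 7.27 on random 1 to 3. Its second probe set 202643_s_at read 6.29, 6.58 and 6.50 on aligned fibers, against 6.01, 6.07 and 5.90 on random fibers. In both, every aligned array was above every random array, with aligned 1 the lowest of its group and random 3 the lowest of all. The log2 differences were 0.48 ± 0.11 and 0.46 ± 0.10 (SE), or 1.40-fold and 1.38-fold, with 95% confidence intervals of 0.24 to 0.73 and 0.23 to 0.70. These were places 79 and 74 in the order of 27621 unadjusted p-values, and the adjusted p was 0.506 for each in limma. In limma with a weight for each array the adjusted p was 0.0408 and 0.0397. That fit gave aligned 2, the highest array in both, a weight of 8.49, against 0.308 to 1.75 for the others. In it 291 of 27621 kept probe sets passed the adjusted threshold. The TNFAIP3 probe sets differed from each other by 0.02 in the unweighted log2 difference. Between arrays of the same number the first probe set differed by 0.30, 0.51 and 0.63 and the second by 0.28, 0.51 and 0.60. Without aligned 3 the differences were 0.47 and 0.44, so they were nearly as large without the array that stood apart.

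Among the subunits, NFKB2 encodes p100, which is cut to the subunit p52 in the non-canonical branch. Its probe set 209636_at read 6.60, 6.72 and 7.03 on aligned fibers, against 6.52, 6.42 and 6.44 on random fibers. Probe set 207535_s_at read 7.34, 7.34 and 7.63 on aligned fibers, against 7.24, 7.22 and 7.20 on random fibers. Both separated the groups, with aligned 3 the highest array in each. The log2 differences were 0.32 ± 0.12 (SE) for 209636_at and 0.21 ± 0.10 for 207535_s_at, with 95% intervals of 0.05 to 0.60 and -0.01 to 0.44 and adjusted p of 0.507 and 0.520 in limma. Without aligned 3 these were 0.20 and 0.12. The third NFKB2 probe set, 211524_at, was below the filter, between percentile 14.2 and 21.1 of the arrays, and read 3.50, 3.37 and 3.52 on aligned and 3.60, 3.87 and 3.45 on random fibers, which overlap.

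RELB, the partner of p52, was read by 205205_at at 7.46, 7.46 and 7.93 on aligned fibers, against 7.36, 7.27 and 6.96 on random fibers. The groups did not overlap, but aligned 3 was the highest and random 3 the lowest array, and aligned 1 and random 1 lay 0.10 apart. The difference was 0.42 ± 0.16 (SE), or 1.34-fold, with a 95% interval of 0.05 to 0.79 and an adjusted p of 0.508 in limma. It was 0.26 without aligned 3 and 0.30 without random 3. In limma the unadjusted p of RELB was 0.0307, or 0.0663 in the fit with the replicate block. Between arrays of the same number it was 0.10, 0.19 and 0.96.

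The subunits of the canonical pair lay closer together. NFKB1, whose product p105 is the source of p50, read 8.40, 8.59 and 8.49 on aligned fibers, against 8.38, 8.42 and 8.32 on random fibers. Only the lowest aligned and the highest random array crossed, and the difference was 0.12 ± 0.08 (SE; 95% interval -0.07 to 0.31; adjusted p = 0.612 in limma), or 0.07 without aligned 2. RELA encodes p65, the subunit that activates transcription in that pair. Its probe set 201783_s_at read 9.46, 9.53 and 9.61 on aligned fibers, against 9.49, 9.36 and 9.43 on random fibers. Its probe set 209878_s_at read 8.06, 8.03 and 8.09 on aligned fibers, against 8.04, 7.88 and 8.09 on random fibers. The groups overlapped in both, with differences of 0.11 ± 0.08 and 0.05 ± 0.08 (SE) and 95% intervals of -0.08 to 0.30 and -0.14 to 0.25. The first was 0.07 without aligned 3 and without random 2, and the second was -0.0075 without random 2. Whether NFKB2 and RELB differ from RELA and NFKB1 in their change was not tested.

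The inhibitors differed by less than TNFAIP3 did. NFKBIA encodes IkB-alpha, which covers the nuclear localisation signal of the dimer and is resynthesised soon after activation. Its probe set 201502_s_at read 9.32, 9.36 and 9.58 on aligned fibers, against 9.36, 9.27 and 9.28 on random fibers. Aligned 3 was the highest array, and random 1 was above aligned 1. The difference was 0.12 ± 0.09 (SE; 95% interval -0.10 to 0.34; adjusted p = 0.655 in limma) and 0.04 without aligned 3. The second NFKBIA probe set, 231699_at, was below the filter and read 5.21, 5.16 and 5.27 on aligned and 5.03, 5.18 and 5.14 on random fibers. NFKBIE, the gene of IkB-epsilon, read 7.26, 7.20 and 7.34 on aligned fibers, against 7.22, 7.07 and 7.14 on random fibers. Its groups overlapped, and the difference was 0.12 ± 0.08 (SE; 95% interval -0.07 to 0.31; adjusted p = 0.595 in limma).

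The target genes had overlapping groups. ICAM1 encodes an adhesion molecule that binds leukocyte integrins. Its probe set 215485_s_at read 6.26, 6.21 and 6.06 on aligned fibers, against 6.10, 6.13 and 5.97 on random fibers. Its probe set 202637_s_at read 5.93, 5.71 and 5.82 on aligned fibers, against 5.77, 5.83 and 5.64 on random fibers. The differences were 0.11 ± 0.09 and 0.07 ± 0.09 (SE), and both signals were near the middle of the arrays, between percentile 50.2 and 59.9. The first was 0.07 without aligned 1 and 0.06 without random 3, and the second was 0.02 without either. The third, 202638_s_at, was below the filter at 3.43, 3.53 and 3.76 on aligned and 3.59, 3.77 and 3.26 on random fibers. TNFAIP2, a gene induced by tumour necrosis factor, had the widest spread among cultures on random fibers. Its probe set 202510_s_at read 8.84, 8.60 and 8.45 on aligned fibers, against 8.91, 8.36 and 8.22 on random fibers. Its probe set 202509_s_at read 5.81, 5.87 and 5.74 on aligned fibers, against 5.97, 5.63 and 5.32 on random fibers. Random 1 was the highest array in both and random 3 the lowest. The differences were 0.14 ± 0.19 and 0.17 ± 0.15 (SE). They were 0.34 and 0.33 without random 1, against -1.8e-05 and 0.0074 without random 3.

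**Figure D2:**
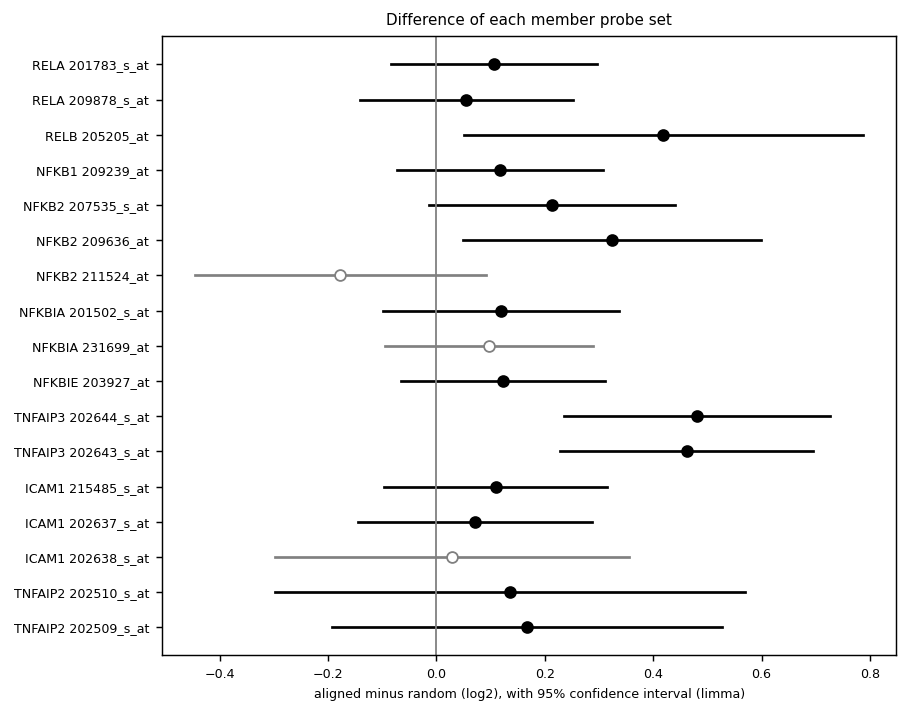
Log2 difference, aligned minus random (x axis), of the 17 member probe sets (y axis) with 95% confidence intervals from limma, filled for the 14 kept and open for the 3 below the filter, which come from the fit with no filter. The intervals of both TNFAIP3 probe sets, of RELB and of NFKB2 209636_at lie above 0 before adjustment, and the others include 0.

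All 14 kept member probe sets had a higher mean on aligned fibers, as did 49.1% of all kept probe sets, and 16 of all 17 did so. The median log2 difference was 0.13 over the 14, against -0.0034 over all kept probe sets. The mean over the 14, taken as the difference from the mean of the random arrays, was 0.16, 0.19 and 0.26 on aligned 1 to 3 and 0.09, -0.0027 and -0.09 on random 1 to 3. Random 1 was thus the closest of its group to the aligned arrays, and it lay above the random mean in 14 of 14. Random 3 held the lowest random value in 9 of 14 and aligned 3 the highest aligned value in 7 of 14. Between arrays of the same number the members differed on average by 0.07, 0.20 and 0.36, while the mean over all kept probe sets was -0.01, 0.01 and -0.04. In 8 of 14 the aligned array was higher in all 3 pairs, against 20.4% of all kept probe sets.

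**Figure D3:**
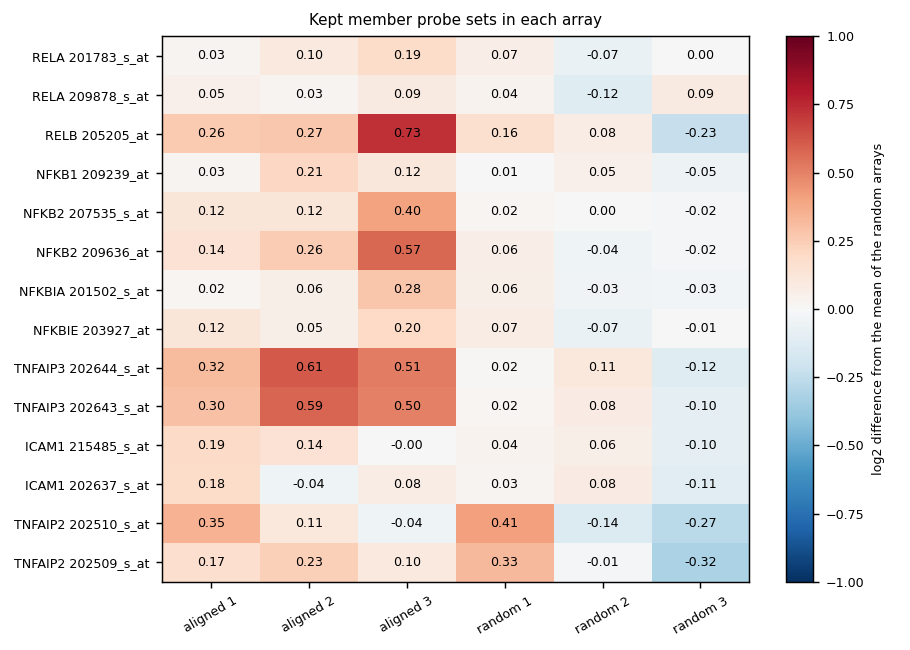
Colour and number give the log2 difference of each kept member probe set (rows) in each array (columns) from the mean of the 3 random arrays. Both TNFAIP3 probe sets are above 0 on every aligned array, RELB reaches 0.73 on aligned 3, and TNFAIP2 202510_s_at is at 0.41 on random 1.

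**Figure D4:**
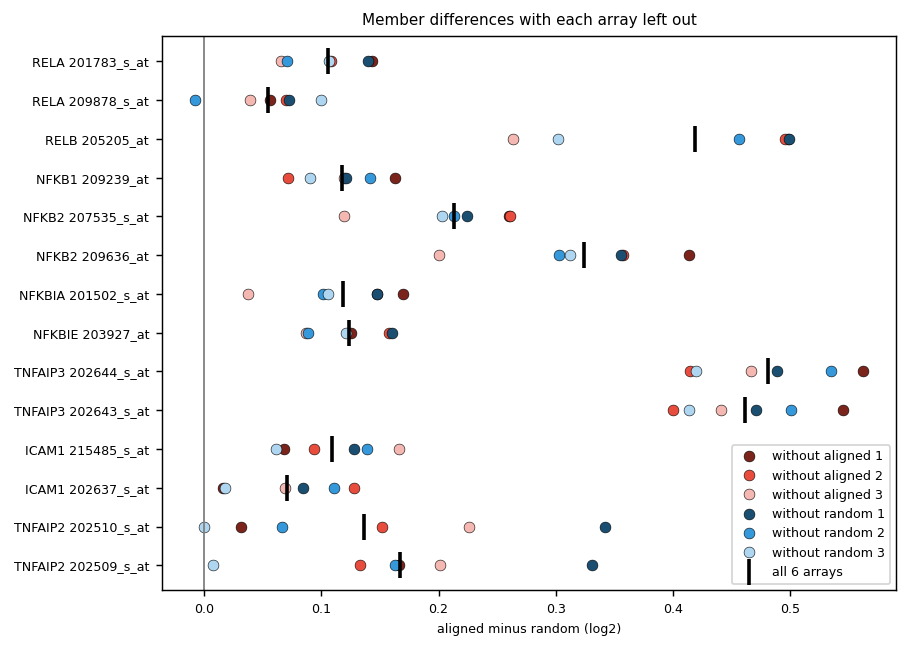
Log2 difference, aligned minus random (x axis), of each kept member probe set (y axis) with all 6 arrays (bar) and with each array left out (dots). TNFAIP3 stays between 0.40 and 0.56, RELB between 0.26 and 0.50, and TNFAIP2 202510_s_at between 0 and 0.34.

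The promoters of TNFAIP3, NFKB2, NFKBIA and NFKB1 are shown because they carry the DNA element that NF-kB dimers are known to bind. In the RefSeq promoter table (GRCh38.p14), 8 of the 10 genes matched, with 12 start sites, all but RELB and NFKBIE. The 250 bases before each start were searched on both strands for the kappaB consensus, a degenerate motif of 10 bases, which 9.96% of 35116 promoters and 11.8% of 27305 genes in the table held. It was found in 5 of 8 genes, NFKB1, NFKB2, NFKBIA, TNFAIP3 and BIRC3, and not in these windows of RELA, ICAM1 and TNFAIP2. Below are the last 120 bases before a start, 5′ to 3′ on the gene's strand, with matches to the consensus on either strand in capitals.
TNFAIP3: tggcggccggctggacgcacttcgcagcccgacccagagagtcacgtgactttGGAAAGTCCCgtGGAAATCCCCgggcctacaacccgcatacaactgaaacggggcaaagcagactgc
NFKB2: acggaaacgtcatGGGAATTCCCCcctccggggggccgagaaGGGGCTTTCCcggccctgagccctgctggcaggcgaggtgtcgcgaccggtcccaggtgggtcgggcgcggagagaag
NFKBIA: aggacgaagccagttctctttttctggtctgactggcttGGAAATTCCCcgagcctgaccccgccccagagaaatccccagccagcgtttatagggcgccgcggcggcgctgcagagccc
NFKB1: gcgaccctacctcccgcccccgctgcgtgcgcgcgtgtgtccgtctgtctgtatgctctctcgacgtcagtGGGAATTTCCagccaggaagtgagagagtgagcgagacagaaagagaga

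The TNFAIP3 stretch lies at chr6:137867139-137867258 on the plus strand and holds 2 matches, which begin 67 and 55 bases before the start and read as the motif on the opposite strand. The NFKB2 stretch, at chr10:102394458-102394577 on the plus strand, is the second of 3 NFKB2 start sites and holds overlapping matches from 107 bases and another from 78 bases before the start. In NFKBIA, at chr14:35404750-35404869 on the minus strand, 1 match begins 81 bases before the start. In NFKB1, at chr4:102501239-102501358 on the plus strand, 1 match begins 49 bases before the start. A match is a description of the sequence, and binding was not measured. The 4 genes shown include 2 whose groups separated, TNFAIP3 and NFKB2, and 2 whose groups overlapped, NFKBIA and NFKB1.

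Other genes of the pathway were read with 1 probe set a gene, among 12381 genes of which 0 (0%) passed the adjusted threshold and 10.5% had an unadjusted p under 0.05 in limma, 4.72% higher and 5.81% lower on aligned fibers. The median over all genes was 0.0096. On this scale 2 of 9 member genes, TNFAIP3 and RELB, were at an unadjusted p under 0.05, RELB in the fit without the replicate block, and 3 of 9 lay above on aligned fibers without overlap, against 8.71% of all genes that lay above and 9.33% that lay below. With a weight for each array, 11 of the 16 genes named from the lists below passed the adjusted threshold in limma. These 16 were chosen for the smallest unadjusted p of their lists on the same arrays, so this count is no independent support. The share of all genes that passed in that fit was not counted. A higher mean on aligned fibers was found in 52.5% of all genes, and a higher value in all 3 pairs of equal number in 23.1%.

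Of 12 measured kinases, further subunits and inhibitors, 2 were higher at an unadjusted p under 0.05, 0 were lower and 0 passed the adjusted threshold, with a median of 0.0031. NFKBIZ encodes a nuclear inhibitor-like protein that is itself an NF-kB target. It read 8.30, 8.35 and 8.40 on aligned fibers, against 7.95, 8.05 and 7.67 on random fibers, with no overlap. The difference was 0.46 ± 0.11 (SE; adjusted p = 0.463 in limma) and 0.43 without aligned 3. NFKBIB, the gene of IkB-beta, differed by 0.23 ± 0.10 (SE; adjusted p = 0.472 in limma), or 0.14 without aligned 3. The subunit gene REL and the kinase gene TBK1 differed by -0.13 ± 0.11 and -0.10 ± 0.08 (SE), or -0.02 and -0.04 without aligned 3. With the replicate number as a block, 1 gene of this list and 13.4% of all kept probe sets were at an unadjusted p under 0.05. The list is read by gene, and the share of all genes in the blocked fit was not counted.

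Of 9 measured receptors and ligands, 1 was higher at that threshold and 0 were lower, with a median of 0.07. IL1R1, the signalling receptor of interleukin-1, read 5.83, 5.95 and 6.24 on aligned fibers, against 5.85, 5.39 and 5.52 on random fibers. Random 1 lay above aligned 1, and the difference was 0.42 ± 0.15 (SE; adjusted p = 0.463 in limma) and 0.30 without aligned 3. Its co-receptor gene IL1RAP differed by -0.40 ± 0.23 and the endotoxin receptor gene TLR4 by -0.28 ± 0.14, which became -0.13 and -0.17 without aligned 3. TNFRSF12A, the receptor of the cytokine TWEAK, differed by 0.28 ± 0.16, or 0.09 without aligned 3. With the replicate number as a block, 2 genes of this list and 13.4% of all kept probe sets were at an unadjusted p under 0.05. Here too the share of all genes in the blocked fit was not counted.

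Of 26 measured adaptors and ubiquitin enzymes, 3 were higher at that threshold, 0 were lower and 0 passed the adjusted one, with a median of 0.04. In 7 of 26 all values on aligned fibers exceeded those on random fibers. IRAK2, a kinase-like adaptor of interleukin-1 and Toll-like receptors, read 8.45, 8.33 and 8.68 on aligned fibers, against 8.11, 7.93 and 7.66 on random fibers. The groups did not overlap, and the difference was 0.58 ± 0.14 (SE; adjusted p = 0.463 in limma), or 0.49 without aligned 3. TRAF1, an adaptor that is induced by NF-kB, differed by 0.38 ± 0.15, and TRAF3, which restrains the non-canonical branch, by 0.24 ± 0.09 (adjusted p of 0.472 and 0.463 in limma). Without aligned 3, TRAF1 was at 0.22 and TRAF3 at 0.24. RBCK1, a part of the enzyme that makes linear ubiquitin chains, differed by 0.56 ± 0.24, or 0.26 without aligned 3. With the mean of a gene's probe sets RBCK1 was at 0.31 and TRAF3 at 0.15 (unadjusted p of 0.104 and 0.0810 in limma). IRAK2 and TRAF1 had no second kept probe set to average, so their 0.58 and 0.38 could not change.

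Of 18 measured further target genes, 5 were higher and 1 lower at an unadjusted p under 0.05 and 0 passed the adjusted threshold, with a median of 0.23. Among chemokine genes for neutrophils, the log2 difference was 0.92 ± 0.21 for CXCL2, 1.14 ± 0.22 for CXCL3 and 1.82 ± 0.48 for CXCL8 (SE), each with separated groups and an adjusted p of 0.463 in limma. CXCL8 read 10.40, 9.30 and 10.70 on aligned fibers, against 9.26, 7.98 and 7.69 on random fibers. Its aligned 2 and random 1 thus lay close. Without aligned 3 the differences were 0.72 for CXCL2, 0.89 for CXCL3 and 1.54 for CXCL8. BCL2L1, which encodes the survival protein BCL-XL, read 9.95, 9.88 and 10.14 on aligned fibers, against 9.85, 9.64 and 9.42 on random fibers. Its difference was 0.36 ± 0.13 (adjusted p = 0.463 in limma) and 0.28 without aligned 3. The 6 target genes at the unadjusted threshold became 4 without aligned 3 or random 2 and 3 without random 3.

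**Figure D5:**
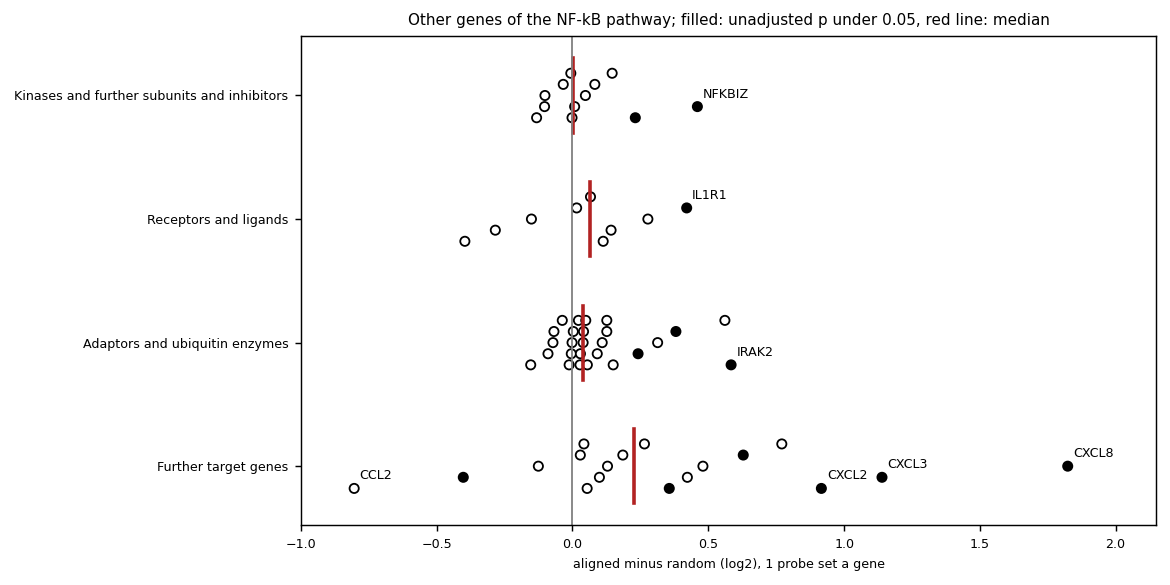
Log2 difference, aligned minus random (x axis), of each measured gene in 4 lists of the NF-kB pathway (y axis), with filled points at an unadjusted p under 0.05 in limma and a red line at the list's median. The medians are 0.0031, 0.07, 0.04 and 0.23 from top to bottom, and CXCL8 lies at 1.82.

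The genes whose profile was most like that of TNFAIP3 202644_s_at were found by the root mean square difference over the 6 arrays, each profile taken from its own mean over the random arrays. SGK1, a kinase induced by serum and glucocorticoids, came closest of 12380 genes, at 0.06 log2 units. MPP3 and NFKBIZ followed at 0.09 each, INHBA, a subunit gene of activin, at 0.10 and MET, the receptor of hepatocyte growth factor, at 0.11. SGK1 read 9.88, 10.13 and 9.98 on aligned fibers, against 9.66, 9.63 and 9.35 on random fibers, and like TNFAIP3 it was highest on aligned 2. Among the members RELB was the nearest, at 0.19 and place 201, followed by NFKB2 at 0.23 and place 673. TNFAIP2 was the farthest, at 0.37 and place 6301. The profiles share the same 6 arrays, so this likeness is a description.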

How the data were processed

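Per the labels' protocols, biotinylated cRNA from total RNA of each culture was hybridised to 1 array. Each array has a column of deposited log2 expression values, made by the authors. The submitters' processing notes name RMA, with no version. Of 54675 probe sets, 62 controls were set aside. The filter on dim signal asked for a value above the array's own median in 3 or more of 6 arrays, and 27621 passed. Gene symbols came from the platform annotation: 41091 probe sets had 1, 1801 several and 11721 none.

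Aligned minus random was tested by moderated linear models (limma 3.58.1, R 4.3.3), two-sided and with no covariate, with Benjamini-Hochberg adjustment over all kept probe sets at 0.05. The fit leaves 4 residual degrees of freedom before shrinkage, and the number of arrays limits the precision. A second fit used 1 probe set a gene, the kept one with the highest mean, which left 12381 genes. In simulated arrays of 27621 probe sets, 78% of 100 probe sets shifted by a log2 of 1 and 98% of 100 shifted by 2 were recovered. No smaller shift was simulated, so these shares do not cover the members, whose largest log2 difference was 0.48. In the measured arrays CXCL8 differed by 1.82 and did not pass (adjusted p = 0.463 in limma with 1 probe set a gene). The simulated shares may thus not hold for the measured arrays.

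Members and lists were chosen with earlier results of these data known. Named were all members, the 4 genes of each of 4 pathway lists with the smallest unadjusted p and the 5 genes most like TNFAIP3. Deviations from the group means correlated by 0.408, 0.353 and 0.123 between arrays of equal number, all above a limit of 0.1. Differences between arrays of equal number were therefore listed, and a fit with the number as a block was run as an alternative. The main fit left the arrays unpaired. Pairing by number comes from the values and not from a label, and aligned 2 and random 3 also correlated, by 0.111. Other alternatives were other filters, scalings, priors and array weights, other ways to join probe sets, and each array left out. Promoter windows were searched in Python 3.11.15, and figures were drawn with matplotlib 3.10.9.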

Additional observations from a re-analysis of the deposited data

How the results depend on the processing

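With array weights, where aligned 2 carried a weight of 8.49 and aligned 3 of 0.308, 291 probe sets passed the adjusted threshold and 6789 the unadjusted one, and both TNFAIP3 probe sets passed (adjusted p of 0.0397 and 0.0408 in limma), 2 of the 14 members. Under the other settings 0 members passed, and their adjusted p for TNFAIP3 reached 0.837. With the weights, 2 of 12 genes of the kinase list were at the unadjusted threshold. The other lists had 4 of 9 receptors, 8 of 26 adaptors and 10 of 18 targets there. Of all kept probe sets 24.6% were at that threshold with the weights. The lists are read by gene, and the share of all genes at it was not counted. ICAM1 202637_s_at turned to -0.059. In the weighted fit with 1 probe set a gene, 11 of the 16 named list genes passed the adjusted threshold (adjusted p of 0.00838 to 0.0356 in limma). The 16 had been chosen for the smallest unadjusted p on the same arrays, so this count is no independent support. The 11 were CXCL3, CXCL2, CXCL8, NFKBIZ, IRAK2, IL1R1, RBCK1, TLR4, TRAF3, TRAF1 and IL1RAP. The 291 belong to the fit of probe sets, and the share of all genes that passed was not counted. With an array left out, RELA 209878_s_at ranged between -0.0075 (without random 2) and 0.10, and TNFAIP2 202510_s_at between -1.8e-05 (without random 3) and 0.34.

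The count of 2676 probe sets at an unadjusted p under 0.05 was 9.69% of those tested. It was 4698 with no filter (8.6% of 54613) and 1380 with the stricter filter (9.97% of 13837). Without shrinkage it was 1734 (6.28%). By gene it was 1303 with 1 probe set a gene (10.5% of 12381) and 1271 with the mean of a gene's probe sets (10.3%). With an array left out it was 1262 to 4812 (4.57% to 17.4%), where 0 to 1 passed the adjusted threshold (1 without aligned 1). Leaving out aligned 1 gave the 4812, random 3 the 1262, random 2 gave 1558 and aligned 3 gave 1494. The members' 4 became 1 with the stricter filter, 2 without shrinkage, 2 with 1 probe set a gene and 2 to 6 with an array left out, being 2 without aligned 3, random 2 or random 3, both of them TNFAIP3. The median of 0.13 was 0.11 to 0.19 with an array left out.

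The kinase list's 2 became 1 without shrinkage, with arrays centred on their median and with the replicate block, and 1 to 2 with an array left out, 1 without aligned 3 or any random array. The receptor list's 1 became 0 with the stricter filter, which left IL1R1 untested. It was 2 with no filter, 0 without shrinkage and 2 with the replicate block. With an array left out it was 0 to 4, 4 without aligned 1 and 0 without aligned 3, random 2 or random 3. The adaptor list's 3 became 1 to 5 with an array left out, 5 without aligned 1 and 1 without random 2 or random 3. The target list's 6 became 3 to 7 with an array left out and 3 without shrinkage. With the stricter filter, which left CXCL2 and CXCL3 untested, it was 3. With the replicate block 3 member probe sets, both of TNFAIP3 and NFKB2 209636_at, were at an unadjusted p under 0.05, so RELB was lost. The adaptor list then had 4, RBCK1 among them, and the target list 7, where 13.4% of all kept probe sets were at that threshold. These lists are read by gene, and the share of all genes with the block was not counted. The adjusted p was 0.369 for TNFAIP3 in limma, and with the block 0 member probe sets passed the adjusted threshold.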

Other observations

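Values of 5 more target genes are given here, chosen after their values were seen. CSF1, a macrophage growth factor, was the 1 target lower on aligned fibers at an unadjusted p under 0.05, with a log2 difference of -0.40 ± 0.14 (SE; adjusted p = 0.463 in limma) and overlapping groups. IER3, an early response gene, differed by 0.63 ± 0.23 and had overlapping groups. CCL2, a monocyte chemokine, differed by -0.80 ± 0.79, so its standard error was nearly as large as its difference. The cytokine gene IL6 differed by 0.42 ± 0.28 and the protease gene PLAU by 0.77 ± 0.41, with overlapping groups in both.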
